A study of Mus musculus with 10 samples.

Results

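Among 6 lung tumors of mice bred to develop small cell lung cancer, 2 carried far more RNA of Scgb1a1, the secretoglobin that club cells of the airway release, than the other 4. These Scgb1a1-rich tumors were selected on that measured level, as the lung tumors with more than 20000 TPM of Scgb1a1, and they are 2 of the 10 libraries of the study. TPM is a gene's share of all transcripts after correction for gene length, scaled to a total of 1000000 per library. One came from the RPR2 mouse JHK1394 and held 54787 TPM, and the other came from the Nfib-floxed mouse JHK1398 and held 50157 TPM. The nearest tumor below the limit was the RPR2 tumor of JHK1548 with 9650.1 TPM. The remaining 3 were the RPR2 tumor of JHK1373 with 7539.9 TPM and the Nfib-floxed tumors of JHK997 with 4691 TPM and JHK1399 with 1358 TPM. Scgb1a1 alone made 5.48% and 5.02% of all transcripts in the rich tumors, against 0.136% to 0.965% in the poor ones.

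RPR2 stands for the loss of 3 tumor suppressors, Rb1, Trp53 and Rbl2, from lung cells. Mice of the genotype RPR2;Nfibf/f share this loss and have conditional alleles of Nfib in addition, and Nfib-floxed is used for them in the text. Nfib encodes a DNA-binding regulator, nuclear factor I B. RNA was sequenced from 3 lung tumors of each genotype and from 2 liver metastases of each genotype. JHK1373, JHK1394, JHK1398 and JHK1399 gave both a lung tumor and a metastasis, so each Scgb1a1-rich tumor has a metastasis of the same mouse. The tumors were cut out by eye when the mice fell ill, and each library is bulk RNA of whatever the piece held. In such RNA, fewer cells of a type and less RNA per cell cannot be told apart. The mice's ages, the Cre driver and the number of nodules per piece are not known from the labels.

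Small cell lung cancer is a neuroendocrine tumor: its cells make secretory granule proteins and neuronal proteins, and they divide fast. The lung around it holds club and ciliated cells in the airway wall, alveolar type 2 cells that make surfactant, flat alveolar type 1 cells that exchange gas, and resident macrophages. Scgb1a1, on the minus strand of chr19:9083636-9087958 in GRCm38, is the classical mark of club cells and one of the most abundant messages of normal lung.

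**Figure D1:**
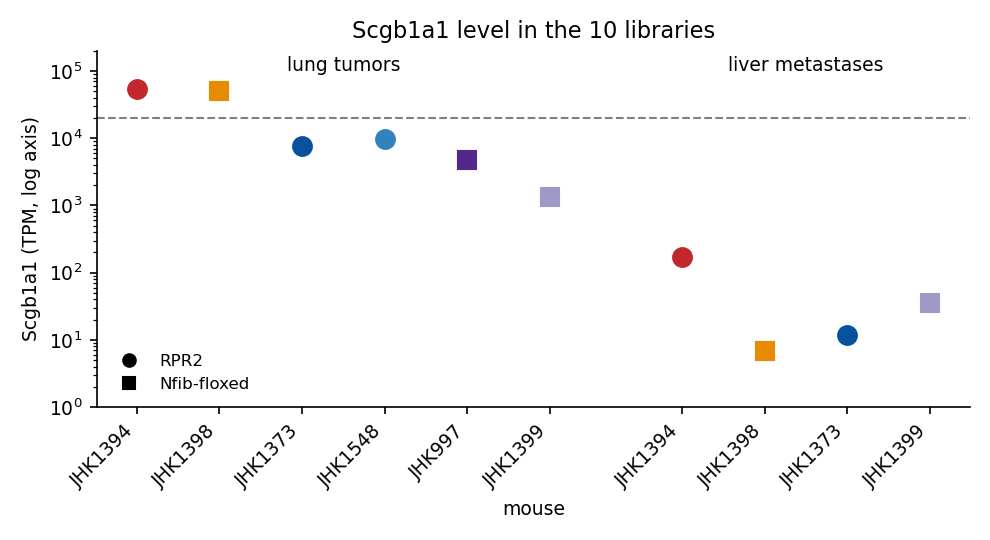
Scgb1a1 level in TPM (log axis) in each of the 10 libraries, 1 point per library, circles for RPR2 and squares for Nfib-floxed mice, with the limit of 20000 TPM dashed. The lung tumors of JHK1394 and JHK1398 are above the line, the other 4 between 1358 and 9650.1, and the 4 liver metastases at or under 171.6.

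Because Scgb1a1 chose the tumors, the differences between rich and poor tumors are descriptions of these 6 pieces of tissue, with no test. They are given as differences in the mean of log2(TPM + 1), which understates the change of genes with low levels. Of the 15430 genes that averaged 1 TPM or more over the 6 tumors, 1168 (7.57%) were above all 4 poor tumors in both rich ones, and 2777 (18.0%) were below all 4. Over all these genes the median difference was -0.27, so a gene at 0 was above the middle. The Nfib-floxed tumor of JHK1398 set most of that shift. Taken alone its median was -0.43 and it was below all 4 poor tumors at 7270 genes (47.1%) and above at 2532 (16.4%). For the RPR2 tumor of JHK1394 the median was -0.09, with 4200 genes (27.2%) below and 3050 (19.8%) above. These shares of all genes are the background for each count of list members in the lung tumors that follows.

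The library of JHK1398 stood apart in its RNA, and list medians of the rich pair are therefore also given for each tumor. Transcripts encoded by mitochondrial DNA made 12.9% of it, while the other 5 lung tumors had 4.32% to 7.12%, and its 100 most abundant genes held 39.1%, against 24.3% to 28.1%. Its level of a gene fell with the length of the gene's transcript: the median difference from the poor tumors was -0.13 in the shortest of 6 length classes and -0.91 in the longest. In the tumor of JHK1394 the same medians were -0.04 and -0.22. What part this gradient has in the genes listed lower in JHK1398 was not tested gene by gene. When each library was centred within the length classes, 1871 genes were above the poor tumors in both rich ones and 1718 below. Centring each library on its median gave 2084 above and 1500 below, and quantile normalization 1761 and 1824, so which direction held more genes depended on the scaling.

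**Figure D2:**
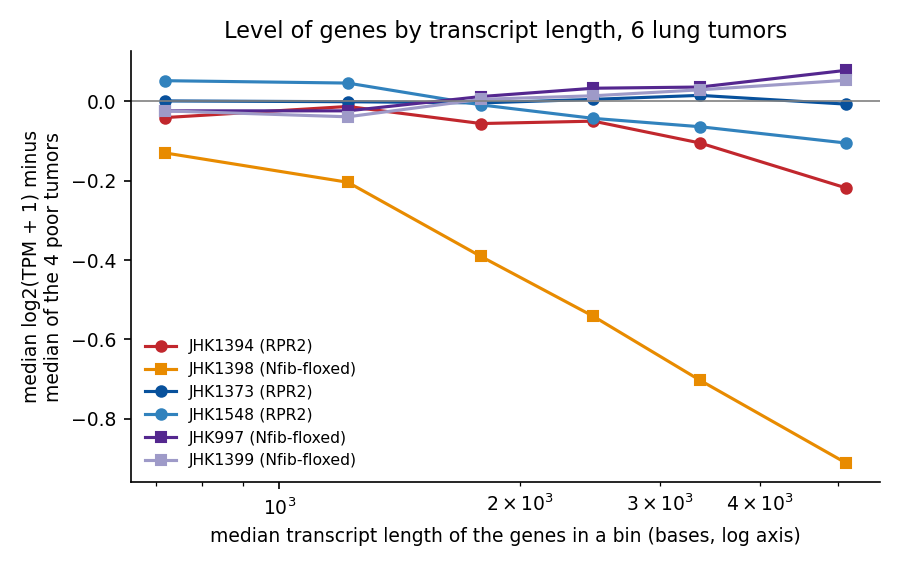
Median over genes of the difference in log2(TPM + 1) from the median of the 4 Scgb1a1-poor tumors, for 6 classes of transcript length (bases, log axis), 1 line per lung tumor. The line of JHK1398 runs from -0.13 to -0.91, that of JHK1394 from -0.04 to -0.22, and the 4 poor tumors stay near 0.

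The genes furthest above the poor tumors were genes of the distal lung. Of the 12 with the largest differences, 7 encode secreted products of club or type 2 cells: Scgb1a1 itself, the surfactant proteins Sftpa1, Sftpb, Sftpc and Sftpd, the surfactant-associated Sfta2 and the type 2 cell chemokine Cxcl15. Cyp2f2, also among the 12, is the club cell cytochrome that activates many inhaled chemicals. Sftpc, the surfactant protein that marks type 2 cells, was at 5061 TPM in JHK1394 and 2357 in JHK1398. The poor tumors held 97.7 (JHK1373), 174 (JHK1548), 73.3 (JHK997) and 598 (JHK1399). Both rich tumors were above every poor one, by 4.37 in the mean of log2, with a pooled SD within the classes of 1.22 (n = 2 and 4). Sftpa1 differed most, by 4.58, with 663 and 206 TPM against 5.03 to 26.4. Scgb1a1 differed by 3.50, or 9.03-fold in mean TPM.

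The other 4 of the 12 were Spp1, Ear1, Ly6g6c and Iapp. Spp1, osteopontin, which macrophages and injured epithelium secrete, was at 1052 TPM in JHK1394 and 117 in JHK1398, against 11.3 to 40.4 in the poor tumors. Ear1, a ribonuclease of eosinophils and alveolar macrophages, was at 13.9 and 9.66 TPM against 0 to 0.983. Iapp, a peptide hormone of the calcitonin family, was at 89.4 and 84.4 TPM against 2.23 to 31.1. Ly6g6c was at 35.8 and 51.3 TPM against 0.359 to 3.88. These differences were carried by both rich tumors, but unequally for Spp1, whose difference was 5.61 in JHK1394 and 2.45 in JHK1398.

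**Figure D3:**
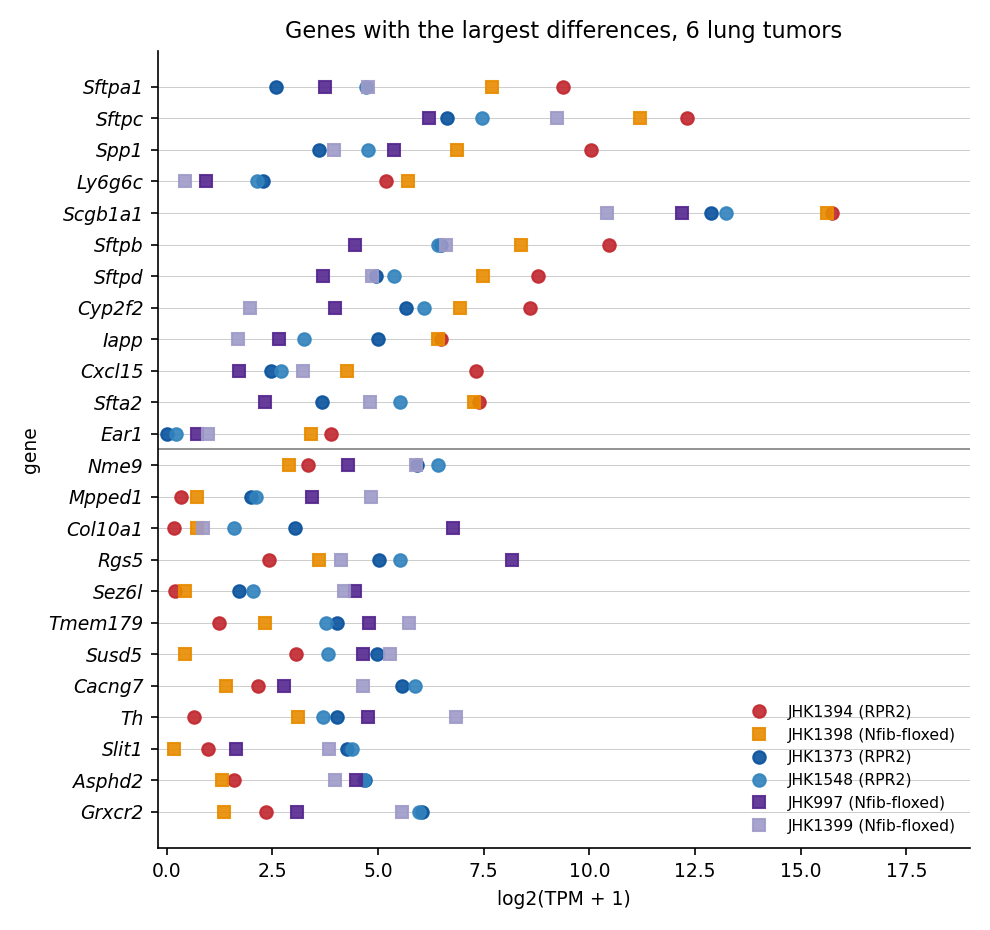
Level as log2(TPM + 1) of the 12 genes furthest above and the 12 furthest below the Scgb1a1-poor lung tumors, 1 point per lung tumor, circles for RPR2 and squares for Nfib-floxed. Above the grey line the points of JHK1394 and JHK1398 are to the right of all others, below it to the left, because the genes were picked for that order.

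The 12 genes furthest below the poor tumors included Slit1, Th and Cacng7. Slit1, an axon guidance ligand, was at 0.979 TPM in JHK1394 and 0.127 in JHK1398, against 18.1 in JHK1373, 20.1 in JHK1548, 2.13 in JHK997 and 13.3 in JHK1399. Th, tyrosine hydroxylase, the first enzyme of catecholamine synthesis, was at 0.58 and 7.61 TPM against 11.9 to 114. Cacng7, a subunit that regulates glutamate receptors and calcium channels, was at 3.48 and 1.63 TPM against 5.91 to 57.4. The differences were -2.96 for Slit1, -2.95 for Th and -2.94 for Cacng7. Grxcr2 had the largest, -3.31, with 4.11 and 1.56 TPM against 7.53 to 64.5, and Asphd2 the next, -3.00. Susd5, Tmem179, Sez6l, Mpped1 and Nme9 followed at -2.93 to -2.52. Susd5 differed by -1.62 in JHK1394 and -4.24 in JHK1398, and Th by -4.17 and -1.73, so single genes of this group rest unevenly on the pair.

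A pair of these 12 are genes of connective tissue and were high in 1 poor tumor. Rgs5, a mark of pericytes, was at 4.41 and 11.1 TPM in the rich tumors and at 31.5, 44.8 and 16.4 in 3 poor ones, but at 289 in JHK997. Col10a1, a collagen, was at 0.122 and 0.647 TPM in the rich tumors, at 0.824 to 7.19 in 3 poor ones and at 108 in JHK997. Without JHK997 the difference was -1.87 for Rgs5 and -1.39 for Col10a1.

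Of the 12 club cell genes listed besides Scgb1a1, 4 were above every poor tumor in both rich ones (Scgb3a2, Cyp2f2, Cbr2 and Cckar), none was below, and the median difference was 1.44. Alone, the median was 1.63 in JHK1394 and 0.55 in JHK1398. Scgb3a2, a second secretoglobin, was at 2612 and 3828 TPM in the rich tumors against 824, 1208, 445 and 92.6 in JHK1373, JHK1548, JHK997 and JHK1399. Cbr2, the lung carbonyl reductase, was at 1398 and 1022 TPM against 133 to 348. The groups did not overlap for either gene.

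Club cell genes did not all follow Scgb1a1. Scgb3a1, the secretoglobin of larger airways, was at 1379.6 and 855 TPM in the rich tumors and at 638, 1401, 1282 and 44.98 in JHK1373, JHK1548, JHK997 and JHK1399, so the groups overlapped. Aldh1a7, an aldehyde dehydrogenase, was at 475 and 124 TPM against 190 to 565, and was lower in the mean. Reg3g, a bactericidal lectin, and Bpifa1, a secreted airway protein, were highest in the poor tumor of JHK1548, at 66.1 and 29.2 TPM, and stood at 0.431 and 1.31, and at 1.23 and 1.66, in the rich ones. The last pair was chosen after their values were seen.

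By the median difference of the pair, type 2 cell genes were the list furthest above the poor tumors of the 34 with measured members. Of 14 type 2 cell genes, 9 were above every poor tumor in both rich ones and none below, with a median difference of 2.47. The median was 3.71 in JHK1394 and 1.70 in JHK1398. Summed over the list, type 2 cell genes made 8308 TPM in JHK1394 and 3312 in JHK1398, against 231.7 to 925 in the poor tumors. Sftpb, which type 2 and club cells share, was at 1418 and 334 TPM against 21.1 to 96.6.

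Type 1 cell genes differed mainly in JHK1394. Of 12 measured, 4 (Ager, Hopx, Pdpn and Aqp5) were above every poor tumor in both rich ones, as were 7.57% of all genes. In JHK1394 alone all but 1 of the 12 were above every poor tumor, as were 19.8% of all genes. The median was 2.62 in JHK1394 and 0.19 in JHK1398. Ager, the receptor that lines type 1 cells, was at 419 TPM in JHK1394 and 160 in JHK1398, against 45.3, 49.9, 92.1 and 43.3 in the poor tumors. Hopx was at 197 and 51.0 TPM against 9.16 to 25.1.

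Ciliated cell genes differed between the rich tumors. Of 13 measured (5 of the 18 listed did not reach a mean of 1 TPM), only Tppp3 was above every poor tumor in both rich ones, at 82.4 and 86.1 TPM against 17.7 to 69.3. The median was 0.23, with -0.06 in JHK1394 and 0.50 in JHK1398, where all genes had -0.09 and -0.43, and with no filter on level it was -0.02. In JHK1398 alone 5 of the 13 were above every poor tumor and none below, and in JHK1394 alone 1 was above and 2 below. Of all genes, 16.4% were above and 47.1% below in JHK1398 alone, and 19.8% and 27.2% in JHK1394 alone. Foxj1, the regulator of ciliated cells, was at 4.46 and 6.13 TPM against 2.31 to 5.70. No airway basal cell gene of the 5 listed reached a mean of 1 TPM, and 3 of 7 goblet cell genes did, with none above all poor tumors in both rich ones.

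**Figure D4:**
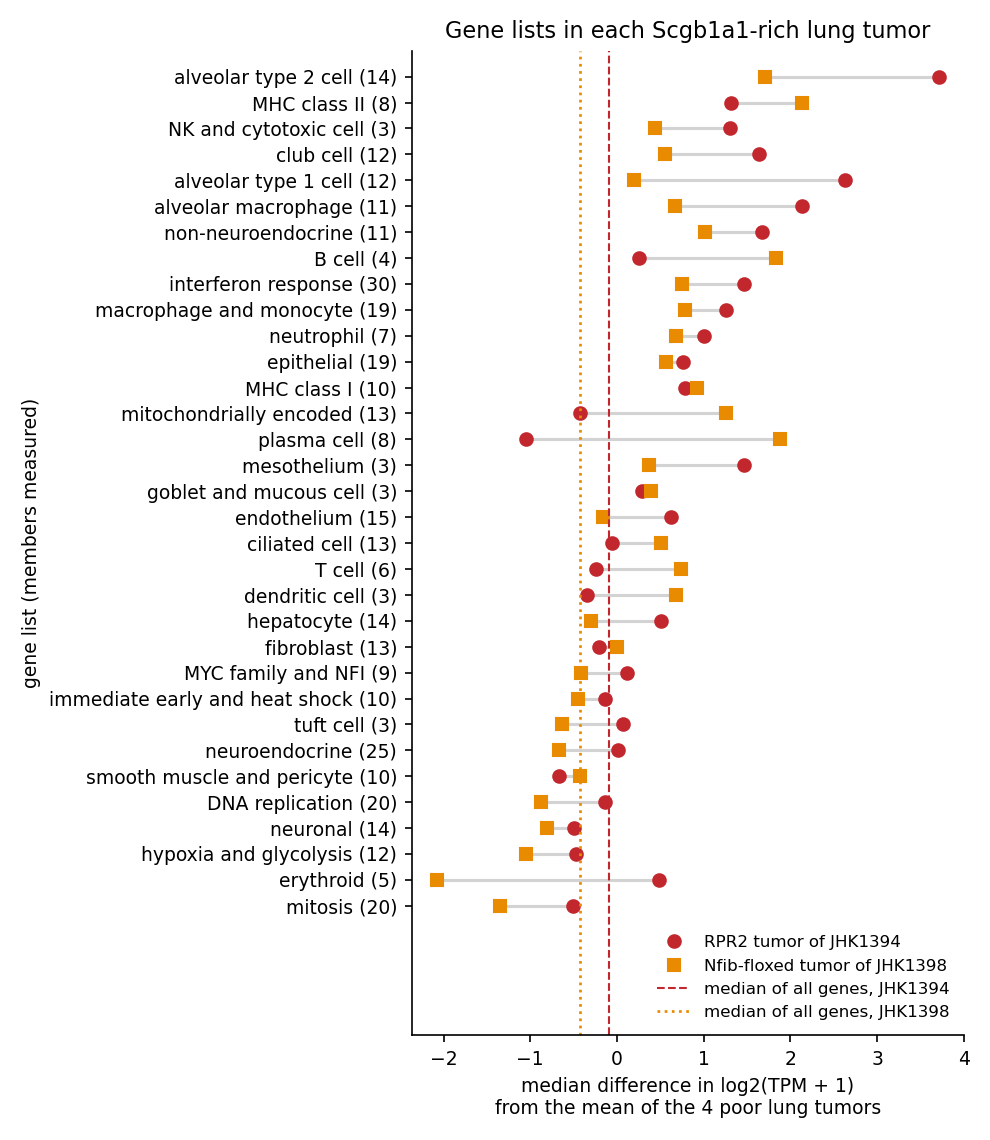
Median over the members of each gene list of the difference in log2(TPM + 1) from the mean of the 4 Scgb1a1-poor tumors, circles for the RPR2 tumor of JHK1394 and squares for the Nfib-floxed tumor of JHK1398, with the median of all genes for each tumor as a vertical line. By the median for the pair, type 2 cell genes are highest (3.71 in JHK1394 and 1.70 in JHK1398). Mitosis genes are lowest by that median (-0.51 and -1.35). In JHK1398 alone MHC class II genes are highest (2.13). Plasma cell genes point in opposite directions (-1.05 and 1.88).

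Macrophage genes were higher in both rich tumors. All 19 measured macrophage and monocyte genes had a higher mean, 9 were above every poor tumor in both rich ones, and the median was 0.99 (1.26 in JHK1394 and 0.79 in JHK1398). Lyz2, the lysozyme of macrophages that type 2 cells also make, was at 3606 TPM in JHK1394 and 537 in JHK1398, against 190.5, 367, 168 and 419 in the poor tumors. C1qa, a complement component of tissue macrophages, was at 271 and 329 TPM against 101 to 213. Of 11 alveolar macrophage genes, 4 (Ear1, Ear2, Krt79 and Itgax) were above every poor tumor in both rich ones. Chil3, a chitinase-like protein that these macrophages secrete, was at 889.5 TPM in JHK1394 and 79.0 in JHK1398, against 9.26, 31.7, 16.2 and 139 in the poor tumors. JHK1398 thus lay within the poor range for Chil3.

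Antigen presentation genes were higher in both, and more so in JHK1398 for class II. Of 8 MHC class II genes, 6 were above every poor tumor in both rich ones, as were 7.57% of all genes. The class II median was 1.77 (1.32 in JHK1394 and 2.13 in JHK1398). Cd74, the class II invariant chain, was at 1158 and 1392 TPM in the rich tumors and at 188, 373, 178 and 349.5 in the poor ones. Of 10 MHC class I genes, 7 were above in both, with a median of 0.82 (0.79 in JHK1394 and 0.93 in JHK1398). B2m, the shared light chain, was at 6294 and 5533 TPM against 2221 to 3405.

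Interferon response genes followed, with 13 of 30 above every poor tumor in both rich ones, against 7.57% of all genes. Their median was 1.06 (1.46 in JHK1394 and 0.75 in JHK1398). Ifi27l2a was at 1195 and 1164 TPM against 72.0 to 496, and Bst2, which tethers budding viruses, at 210.4 and 117 against 32.9 to 112.5. Among the poor tumors, JHK1548 had the highest sum of this list, 1547.6 TPM against 704.6 to 833.4 in the other 3. The rich tumors held 3231 and 2185.

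Plasma cell genes set the rich tumors apart from each other. Igkc, the kappa light chain, was at 471 TPM in JHK1394 and 11543 in JHK1398, against 632, 3174, 2274 and 939 in JHK1373, JHK1548, JHK997 and JHK1399. Igha, the heavy chain of IgA, was at 395 and 6206 TPM against 419 to 1261. JHK1398 was thus the highest and JHK1394 the lowest of the 6 tumors for both. The summed plasma cell list made 1.85% of the transcripts of JHK1398 and 0.109% of those of JHK1394, against 0.125% to 0.431% in the poor tumors. Cd2, an adhesion receptor of T cells, was at 29.1 and 8.36 TPM in the rich tumors against 0.328 to 1.88, but of 6 T cell genes measured 2 were above (Cd3d and Cd2) and 2 below (Cd4 and Lck). Of 7 neutrophil genes, 2 were above every poor tumor in both rich ones, as were 7.57% of all genes. Their median was 0.89 (1.01 in JHK1394 and 0.68 in JHK1398). The summed neutrophil list was nevertheless highest in the poor tumor of JHK1548, at 108.9 TPM, with 97.3 in JHK1394 and 79.0 in JHK1398. B cell genes (4 measured, Cd22 above in both) had a median of 1.18, with 0.26 in JHK1394 and 1.83 in JHK1398. Genes of NK and cytotoxic cells (3 measured, Nkg7 above in both) had a median of 1.66, with 0.44 in JHK1398 and a higher one in JHK1394.

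Not every non-tumor list was higher. No endothelial gene of 15 measured was above or below all poor tumors in both rich ones. Their median was 0.62 in JHK1394 and -0.16 in JHK1398, and Pecam1, an adhesion molecule of vessels, was at 23.9 and 12.3 TPM against 10.02 to 20.9. Of 13 fibroblast genes, none was above and Col3a1 alone was below, with a median of -0.14 that became 0.17 with median centring. Of 10 smooth muscle and pericyte genes, 4 were below every poor tumor in both rich ones (Acta2, Tagln, Pdgfrb and Rgs5), with 18.0% of all genes below in both. Acta2, smooth muscle actin, was at 16.2 and 23.7 TPM against 49.3, 28.5, 115.5 and 30.2 in the poor tumors.

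Neuroendocrine genes were detected in all 6 tumors, and their summed list made 16399 TPM in JHK1394 and 12833 in JHK1398, against 18231 to 80200.3 in the poor tumors. That gap lies in 1 member, Calca: the other 24 summed to 7237 and 6789 TPM in the rich tumors and to 6726 to 8255 in the poor ones, so the groups overlapped. Of 25 neuroendocrine genes, none was above every poor tumor in both rich ones and 3 were below (Calca, Rab3c and Sez6), a smaller share than the 18.0% of all genes. The median was -0.39, near that of all genes. It was 0.01 in JHK1394 and -0.67 in JHK1398, and with median centring it was -0.08.

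Calca, which encodes calcitonin and the peptide CGRP, was the most abundant neuroendocrine message and differed most among the tumors. It stood at 9162 TPM in JHK1394 and 6044 in JHK1398. The poor tumors held 18196 (JHK1373), 11505 (JHK1548), 71946 (JHK997) and 68511 (JHK1399). Both rich tumors were below each poor tumor of their own genotype: JHK1394 was below 2 RPR2 tumors of like level, and JHK1398 was far below 2 Nfib-floxed ones. Resp18, a protein of secretory granules, showed no such order, at 1033 and 1777 TPM against 411 to 1802. Mycl, the MYC family member often amplified in this cancer, was at 106 and 12.2 TPM against 149, 142, 48.8 and 20.4.

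Neuronal genes were lower as a list, with 5 of 14 below every poor tumor in both rich ones (Tubb3, Elavl3, Elavl4, Map2 and Stmn3) and a median of -0.59 (-0.50 in JHK1394 and -0.80 in JHK1398). Of all genes, 18.0% were below in both, with a median of -0.27 (-0.09 and -0.43). Map2, a protein of neuronal microtubules, was at 59.9 and 16.9 TPM against 68.3 to 122. Stmn3, which destabilizes microtubules, was at 137 and 145 TPM against 157 to 276. Genes of non-neuroendocrine tumor cells were higher: all 11 measured had a higher mean and 6 were above every poor tumor in both rich ones (Hes1, Yap1, Vim, Cd44, Anxa1 and Lgals3). The median was 1.24 (1.68 in JHK1394 and 1.01 in JHK1398). Normal lung and macrophages also express most of these genes. Vim, an intermediate filament of mesenchymal cells, was at 419.9 and 227 TPM against 48.3 to 143, and Hes1, a target of Notch, at 77.8 and 56.4 against 19.6 to 49.3. The part of normal lung cells and macrophages in these levels was not tested.

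Epithelial genes were higher too, with 8 of 19 above every poor tumor in both rich ones and a median of 0.88 (0.76 in JHK1394 alone and 0.57 in JHK1398 alone). The keratins Krt8 and Krt18 were at 1040.5 and 1034 TPM and at 968 and 937, against 539.8 to 944 and 493.3 to 878. Epcam, an adhesion molecule of tumor and normal epithelium alike, overlapped, at 733 and 510 TPM against 316 to 736.

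All 20 mitosis genes had a lower mean. Of them 4 were below every poor tumor in both rich ones (Mki67, Bub1, Aurkb and Cenpf) and none was above, a share near the 18.0% of all genes that were below in both. The median was -0.87 (-0.51 in JHK1394 and -1.35 in JHK1398), with -0.27 over all genes (-0.09 and -0.43). Mki67, the proliferation antigen, was at 71.7 and 68.0 TPM in the rich tumors and at 172, 256, 169 and 128 in the poor ones. Top2a, the topoisomerase of dividing cells, was at 142 and 143 TPM and overlapped with JHK997 at 93.1 and JHK1399 at 146, while the RPR2 tumors of JHK1373 and JHK1548 held 381 and 409. Of 20 DNA replication genes, 4 were again below in both, and the median was -0.56 (-0.14 in JHK1394, near that of all its genes, and -0.88 in JHK1398). The median of the mitosis list stayed negative under each scaling, at -0.56 or lower. Mcm3, a subunit of the replicative helicase, was at 145 and 220.2 TPM against 99.0 to 194.

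Of 12 genes of hypoxia and glycolysis, 6 were below every poor tumor in both rich ones (Vegfa, Pgk1, Ldha, Bnip3, Ndrg1 and Pfkp) and none was above. Of all genes, 18.0% were below in both. The list median was -0.60 (-0.47 in JHK1394 and -1.05 in JHK1398), with -0.27 over all genes (-0.09 and -0.43). Ldha, lactate dehydrogenase, was at 834 and 268 TPM against 1226, 1070.2, 1306.5 and 949.8. Pgk1, a glycolytic kinase, was at 247 and 75.5 TPM against 251 to 860.1, so JHK1394 was just under the lowest poor tumor.

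Nfib, the gene with conditional alleles in 1 genotype, was at 28.3 TPM in JHK1394 and 85.3 and 118 in the other RPR2 lung tumors, and at 38.01 in JHK1398 and 38.6 and 26.5 in the other Nfib-floxed ones. The rich RPR2 tumor thus had a level in the range of the Nfib-floxed tumors. Its own liver metastasis had 643 TPM, the highest of all libraries, while the metastases of JHK1373, JHK1398 and JHK1399 had 62.8, 46.1 and 41.3. Gene totals do not show which exons were read, so they check the deletion only in part. Rb1, Trp53 and Rbl2 were detected in all 6 lung tumors. Rbl2 was at 13.9 and 6.97 TPM in the rich tumors against 15.9 to 32.4, Rb1 at 92.0 and 41.6 against 74.3 to 143, and Trp53 at 16.2 and 27.6 against 14.6 to 28.0.

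The sexes of the mice did not follow the split. Ddx3y, a gene of the Y chromosome, was at 28.5 TPM in the rich tumor of JHK1394 and 64.9 in the poor tumor of JHK997, and at most 0.585 in the other 4 lung tumors. The erythroid list, a measure of blood in the piece, made 6344 TPM in JHK1394 and 667 in JHK1398, against 1486.5 to 11754 in the poor tumors. JHK1398 held the least blood RNA of the 6, and JHK1394 lay within the range of the others.

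The liver metastases of JHK1394 and JHK1398 were compared with those of JHK1373 and JHK1399, to see whether the gap in Scgb1a1 between the lung tumors was also present in metastases, whose libraries the choice of tumors did not use. Scgb1a1 was at 171.6 TPM in the metastasis of JHK1394 and 6.92 in that of JHK1398, against 12.04 in that of JHK1373 and 34.96 in that of JHK1399. The groups overlapped, and no test of Scgb1a1 is given. The fit of the other genes holds the genotype constant and takes most of its estimate of spread from the lung tumors, and that spread contains the gap between rich and poor tumors. In it, none of 15503 genes passed an adjusted p of 0.05 in either direction (0% higher and 0% lower). At an unadjusted p under 0.05, 403 genes passed, 168 of them higher. The smallest adjusted p by limma was 0.179, and 11 genes passed when no filter on level was used.

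The 5 genes with the smallest p in each direction stayed short of the threshold in the main fit and are given as values. Of them, Cyp3a41a, Rhox2d and Cyp4a10 were among the 11 genes that passed with no filter on level. Cyp4a14, a fatty acid hydroxylase of the liver, was at 7.39 and 0.128 TPM in the metastases of JHK1394 and JHK1398, against 100.5 and 10.4 in those of JHK1373 and JHK1399. Cyp4a10, Cyp3a41a and Igfbp1, which hepatocytes also make, and Rhox2d were lower in the mean as well, with log2 differences of -3.59 to -3.17. Ccdc114, Slc9a2, Bcat1, Cacna1c and Kcnd3 were higher in the mean, by 1.85 to 2.94. Hepatocyte RNA itself was uneven among the metastases: Alb, serum albumin, was at 3555 TPM in JHK1394, 26.3 in JHK1398, 3760.4 in JHK1373 and 1159 in JHK1399. Blood was as uneven, with Hbb-bs, a beta globin, at 1935 and 236 TPM in the metastases of JHK1394 and JHK1398 and at 30239 and 18064 in the others. The part of hepatocytes and blood in these differences was not tested.

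The 2 rich tumors bear on any comparison of lung tumors with metastases, so that comparison was made with and without them. With all 6 lung tumors, limma called 638 genes lower in metastases (4.12%) and 273 higher (1.76%), as a mean over both genotypes. Without the rich tumors it called 393 lower (2.53%) and 127 higher (0.819%). Of the 911 genes called with them, 445 were also called without them, and 75 were called only without them. With only 4 lung tumors the fit has fewer samples, so a lost call is not a sign of a smaller change. The tumors left out were chosen for a far value, which can narrow the spread of genes that go with it. The SE went from 0.654 to 0.279 for Cbr2, but from 0.79 to 0.939 for Scgb3a1. A gained call is thus not a sign of a larger change. The split of the calls moved with the scaling, to 342 higher and 384 lower with median centring and 371 and 381 with quantile normalization, and to 340 higher and 505 lower with centring by transcript length. Without the lung tumor of JHK1394 alone 521 genes passed, without that of JHK997 584, and without the metastasis of JHK1394, JHK1373 or JHK1398 232, 281 or 377. With mouse as a fixed replicate block only 3 genes passed, Sftpb, Sftpc and Cbr2, all lower in metastases, and with mouse as a random block 1012 passed.

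Club cell genes fell in metastases, as a mean over both genotypes, whether or not the rich tumors were counted. Of all genes, 4.12% were called lower with the rich tumors and 2.53% without them. The same 8 of 12 listed club cell genes passed in both fits: Scgb3a2, Scgb3a1, Cyp2f2, Cbr2, Aldh1a7, Lypd2, Sec14l3 and Cckar. Of these, Aldh1a7 was low only in the RPR2 metastases, at 23.4 (JHK1394) and 26.4 TPM (JHK1373). The Nfib-floxed metastases held 366 (JHK1398) and 335 TPM (JHK1399), within the lung tumor range of 124 to 565. Scgb1a1 fell by 8.52 (log2) with the rich tumors, and its mean difference without them was -7.36. Both are given with no test because its own level chose the rich tumors. Scgb3a2 fell by 8.06 with them and 7.12 without them. Without and with the rich tumors, the differences were -6.21 and -7.10 for Cbr2, -6.63 and -7.03 for Scgb3a1 and -5.29 and -6.43 for Sftpb, and each passed in both fits. Of 14 type 2 cell genes, 6 passed as lower with the rich tumors and 7 without. Even the poor tumors thus held airway and alveolar RNA that the metastases did not hold at that level.

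Fewer macrophage and antigen presentation genes passed without the rich tumors. Of 19 macrophage and monocyte genes, 5 passed as lower in metastases with the rich tumors and 1 without them, and of 10 alveolar macrophage genes tested 4 and 1. MHC class II went from 6 to 2 of 8, MHC class I from 6 to 2 of 10, and interferon response genes from 15 to 4 of 30. Calls fell over all genes too, from 4.12% to 2.53% called lower. The medians of these lists went from -1.27 to -0.94 for macrophages, from -1.28 to -0.47 for alveolar macrophages, from -2.43 to -2.08 for MHC class II, from -1.41 to -1.13 for MHC class I and from -1.81 to -1.44 for the interferon response. For type 2 cell genes, with 6 and 7 calls, the median went from -3.21 to -2.36. The median of all genes was -0.10 with the rich tumors and -0.21 without them. Whether the change in these medians differs from that of other genes was not tested.

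**Figure D5:**
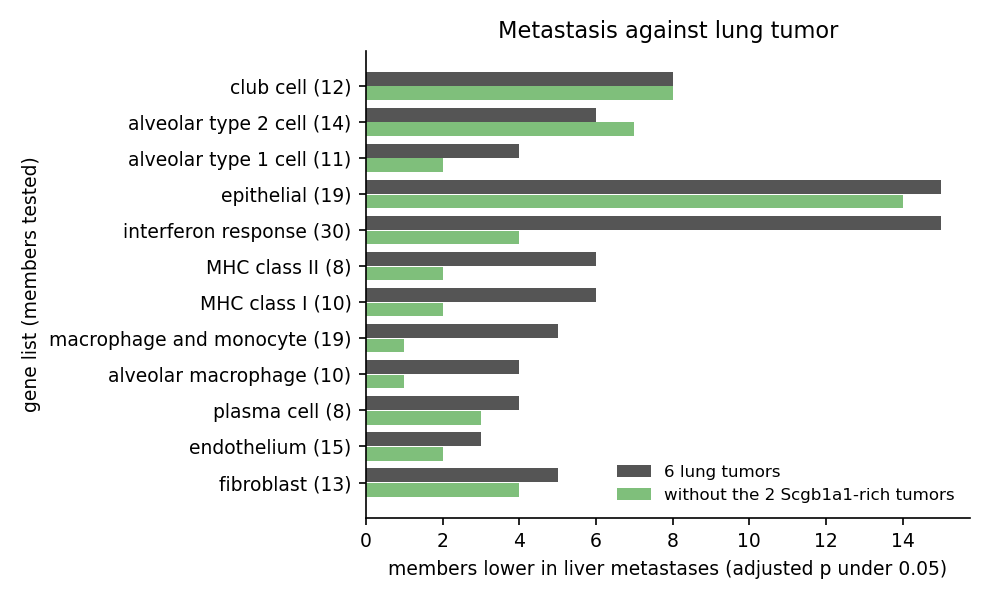
Number of members of 12 gene lists called lower in liver metastases than in lung tumors (limma, adjusted p under 0.05), with all 6 lung tumors and without the 2 Scgb1a1-rich ones. Club cell genes stay at 8 of 12, while interferon response genes go from 15 to 4 of 30. Of all genes, the share called lower goes from 4.12% to 2.53%.

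Of all genes, 4.12% were called lower in metastases with the rich tumors and 2.53% without them. Of 19 epithelial genes, 15 passed as lower with the rich tumors and 14 without them. These calls are of the mean over both genotypes, and the genotypes differed. Summed, the list made 539 (JHK1394) and 413 TPM (JHK1373) in the RPR2 metastases. The Nfib-floxed metastases held 3020 (JHK1398) and 5301 TPM (JHK1399), against 3426 to 7079 in the lung tumors. Of 20 mitosis genes, 9 passed as higher in metastases with the rich tumors and 4 without them (Aurkb, Birc5, Ccna2 and Foxm1), and the median went from 1.14 to 0.82. Here too the genotypes differed. The summed mitosis list made 3711 (JHK1394) and 3426 TPM (JHK1373) in the RPR2 metastases, against 1300 to 2969 in the RPR2 lung tumors. The Nfib-floxed metastases held 3463 (JHK1398) and 2996 TPM (JHK1399), against 858 to 1549 in the Nfib-floxed lung tumors. Hepatocyte genes went from 14 to 4 of 15 called higher, although their median hardly moved (3.83 and 3.89). Over all genes, the share called higher went from 1.76% to 0.819%. Apoa4, an apolipoprotein of liver and gut, rose by 5.01 ± 0.713 (log2, SE) with an adjusted p of 0.00555 by limma. Without the rich tumors it rose by 5.01 ± 0.903, with 0.0389 by limma. Gc and Ahsg, plasma proteins of the liver, rose by 4.81 and 4.46 and also passed in both fits. The metastasis of JHK1398 had little of this rise. Its hepatocyte list summed to 119 TPM, against 106 to 1269 in the lung tumors and 3091 to 10640 in the other metastases. Ahsg was at 12.3 TPM in it, within the lung tumor range of 6.19 to 19.1. Alb rose by 4.21 with the rich tumors, and without them its difference of 4.28 did not pass (adjusted p of 0.0827 by limma).

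Each genotype holds 1 rich lung tumor, so the comparison of Nfib-floxed with RPR2 lung tumors was also made with and without them. No gene of 15503 passed in either fit by limma (0% higher and 0% lower in each). At an unadjusted p under 0.05, 1230 genes passed with the rich tumors and 1851 without them, and the smallest adjusted p was 0.272 and 0.231. Leaving out tumors chosen by their level can narrow the spread of genes, so these values do not rank the fits. The difference in Scgb1a1 between genotypes was -1.21 (log2, n = 3 and 3), given with no test because its own level chose the rich tumors. Nfib was lower in Nfib-floxed tumors by 0.94 ± 0.741 (log2, SE) in the mean, which did not pass (adjusted p of 0.735 by limma). Without the rich tumors the Nfib difference was -1.62 ± 0.907 (n = 2 and 2, adjusted p of 0.508 by limma).

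The genes with the smallest p for the genotype kept their direction without the rich tumors. They were picked in the fit with those tumors, which shares all other libraries, so this is no separate support. Neurod4, a neuronal transcription factor, was at 2.53 TPM in JHK1394 and 0.077 in JHK1398. The other RPR2 tumors held 7.04 and 8.71, and the other Nfib-floxed ones 0.325 and 0. Its difference was -2.53 with the rich tumors and -2.94 without them, and it passed in neither fit. Cd59a, an inhibitor of complement, differed by 2.41 and 2.97, Rasgrf1, an exchange factor of Ras, by 3.14 and 3.73, and Kcnj3, a potassium channel, by -1.83 and -2.11. Klk1b22, Med12, Rps4l, Cyp39a1, Lmnb1 and Naf1 made up the rest of the 10.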

How the data were processed

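Per the labels' protocols, polyA RNA was selected from total RNA of the tumors with NEBNext Ultra II for the libraries. Quantification used Salmon 0.12.0 with genome build GRCm38 and R 4.1.0, per the submitters' processing notes. The annotation release and the strand setting are not named in the labels. The values are gene-level TPM as deposited by the authors in 1 table of 10 libraries, each summing to 1000000. TPM keeps no depth, so sequencing depth is unknown and no counting interval is given. Salmon shares reads among similar transcripts, so levels of near-identical copies are uncertain.

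Groups came from the labels. The rich tumors, the 35 gene lists (442 symbols, 1 not matched) and the rules were chosen with earlier results of these data known. Where a symbol had more than 1 identifier (66 symbols), the identifier with the highest mean was used. Positions and transcript lengths are from GENCODE vM21. Tests were made with limma 3.58.1 in R 4.3.3, two-sided, moderated with a mean trend, on log2(TPM + 1) of the 15503 genes that averaged 1 TPM or more over the 10 libraries. P-values were adjusted by the Benjamini-Hochberg method over these genes with a threshold of 0.05, and the tests were tried on simulated data. The rest was done in Python 3.11.15 (pandas 2.3.3, numpy 2.4.6, matplotlib 3.10.9, scipy 1.17.1).

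Named genes are, for the rich tumors, the 12 furthest above and 12 furthest below among genes whose classes did not overlap and whose higher class averaged 5 TPM or more. The rule adds up to 4 members per list by lung level, Scgb1a1, Mycl, Nfib, Rb1, Trp53 and Rbl2, and 5 genes per direction for each test. A few genes it selects are left unreported. Genes with placeholder names and antigen receptor segments were passed over outside the lists. Members counted as above or below were named as well, after their values were seen, as were Foxj1, Reg3g and Bpifa1.

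Lung tumor and metastasis of 4 mice share an animal, which pairs them by design. Within these pairs, deviations of the genes from their group mean had correlations of 0.04, -0.01, 0.05 and -0.02. Alternatives were other pseudocounts (0.1 and 5), filters, scalings, blocks by mouse and leaving out libraries. Centring by transcript length was chosen after seeing the data.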

Additional observations from a re-analysis of the deposited data

Results flagged for a closer look

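In 9 of 37 sets of libraries looked at, 1 library was far from the others of its set. Chance alone would pick out about 1 set in 20, and neighbouring measures of 1 library are not independent. The Nfib-floxed tumor of JHK1398, 1 of the 2 Scgb1a1-rich ones, was far from the other 5 lung tumors in 3 measures. Its mitochondrially encoded share was 12.87%, with 4.324% to 7.125% in the others. Its 100 most abundant genes held 39.11%, with 24.29% to 28.12% in the others. The median of its longest transcripts minus that of its shortest was -0.781, with -0.177 to 0.102 in the others.

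Among the 4 Scgb1a1-poor tumors, that of JHK1548 was far above the other 3 in the summed level of 3 lists. Airway basal cell genes made 6.645 TPM in it (0.679 to 1.225 in the others), neutrophil genes 108.9 TPM (34.73 to 37.25) and interferon response genes 1547.6 TPM (704.6 to 833.4). The poor tumor of JHK997 was far above the other 3 in fibroblast genes, at 2231.8 TPM (677.4 to 819.1), and in smooth muscle and pericyte genes, at 570.4 TPM (101.6 to 167.0). Its genes of the Y chromosome summed to 309.3 TPM (1.426 to 2.667), and it was the one poor tumor of a mouse with Y-linked RNA.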

How the results depend on the processing

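TPM gives no depth, so the precision of low values is unknown, and 2 against 4 tumors of which the pair was selected on its values allow no test. Of 468 values of list medians under the alternatives, 28 had the opposite sign, none of them of the club, type 2, type 1, macrophage, MHC, interferon, mitosis or neuronal lists. The cause of the changes that follow was not tested, except that fewer tumors or genes enter where some are left out.

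Genes above the poor tumors in both rich ones numbered 1168, and 755 with a mean of at least 5 TPM, 2084 with median centring, 1761 with quantile normalization, 1871 with centring by transcript length and 1348 to 3050 with 1 tumor left out. Genes below in both numbered 2777, and 1500, 1824 and 1718 under the same 3 scalings and 3213 to 7270 with 1 tumor left out. The neuroendocrine median was -0.083 with median centring and -0.669 to 0.007 with 1 tumor left out, and the type 2 cell median 1.702 to 3.715. With no filter, 11 genes passed between the metastases.

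Of metastasis against lung tumor, 579 genes passed with a pseudocount of 5, 513 with no filter, 520 without both rich tumors and 232 to 856 with 1 library left out. With mouse as a fixed replicate block, 3 passed, and with mouse as a random replicate block 1012. For the genotype, 1 gene (Gm13577) passed with a pseudocount of 0.1 and 1 (Gm6361) without the lung tumor of JHK1373, which makes 0 to 1 with 1 library left out. None of the named genes of the tested comparisons, which were picked in the main fits, changed sign under the alternatives run.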
